A study of Mus musculus with 47 samples.

Results

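The genes described here are the 4 Egr genes (Egr1, Egr2, Egr3 and Egr4), the 3 Nr4a genes (Nr4a1, Nr4a2 and Nr4a3) and Npas4. They were taken by symbol from the deposited count table, in which all 8 were found among 48795 genes, and all 8 were among the 19193 genes with enough counts to be tested. The table covers RNA from the striatum of 47 mice aged 6 months, with 1 library per mouse. Wild type mice (8) were set beside mice heterozygous for the Q140 knock-in, an Htt allele with an expanded CAG repeat used as a model of Huntington's disease (8), Ccdc82+/- mice (8), Ccdc82-/- mice (8), Q140 mice that were also Ccdc82+/- (8) and Q140 mice that were also Ccdc82-/- (7). All carried the strain label C57BL, each group held 4 females and 4 males except the last, with 3 females and 4 males, and both alleles are germline changes present in all cells rather than in 1 cell type. Ccdc82 mRNA fell with each targeted copy, from 12.01 CPM (counts per M mapped counts, on trimmed mean of M values scaling) in wild type to 8.42 in Ccdc82+/- and 4.57 in Ccdc82-/-, so the labels matched the targeted gene.

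All 8 genes encode transcription factors whose mRNA neurons make within minutes of synaptic activity, without the need for new protein, which is why they are called immediate early genes. Calcium entry and the cAMP and ERK kinase pathways act on factors that already sit at their promoters, chiefly CREB, which binds cAMP response elements, and SRF, which binds CArG boxes. In the striatum, cortical glutamate and dopamine drive these pathways in the medium spiny neurons that make up most of its nerve cells. Egr proteins are zinc finger factors that bind GC-rich sites and are restrained by the corepressors Nab1 and Nab2. Nr4a proteins are orphan nuclear receptors that bind DNA alone or, for Nr4a1 and Nr4a2, together with retinoid X receptors. Npas4 is a basic helix-loop-helix factor that pairs with Arnt or Arnt2.

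The stretches upstream of the start sites are shown for 5 of the genes whose windows hold the letters that CREB is known to read. They include Nr4a2, for which 0 of 7 correlations with the other members passed (described further on). No windows of Egr1 and Egr3 are given here, and whether theirs hold these motifs is not reported. The sequences are from RefSeq on GRCm38.p6, on the strand of the gene, 5′ to 3′. Capitals mark the core of a cAMP response element, TGACG or its reverse complement CGTCA, and in Egr2 also a CArG box. They cover chr10:67537619-67537868 for Egr2, chr6:85513590-85513839 (minus strand) for Egr4, chr15:101266596-101266845 for Nr4a1, chr2:57124004-57124253 (minus strand) for Nr4a2 and chr4:48045055-48045152 for Nr4a3.
Egr2: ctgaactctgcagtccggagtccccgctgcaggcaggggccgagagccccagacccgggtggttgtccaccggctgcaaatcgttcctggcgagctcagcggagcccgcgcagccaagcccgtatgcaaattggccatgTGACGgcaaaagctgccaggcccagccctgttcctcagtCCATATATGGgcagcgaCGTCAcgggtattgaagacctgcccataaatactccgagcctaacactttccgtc
Egr4: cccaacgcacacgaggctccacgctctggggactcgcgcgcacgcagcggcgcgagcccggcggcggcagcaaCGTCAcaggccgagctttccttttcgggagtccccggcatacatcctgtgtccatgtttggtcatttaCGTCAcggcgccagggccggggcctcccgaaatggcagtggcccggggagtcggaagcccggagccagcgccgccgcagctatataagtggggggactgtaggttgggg
Nr4a1: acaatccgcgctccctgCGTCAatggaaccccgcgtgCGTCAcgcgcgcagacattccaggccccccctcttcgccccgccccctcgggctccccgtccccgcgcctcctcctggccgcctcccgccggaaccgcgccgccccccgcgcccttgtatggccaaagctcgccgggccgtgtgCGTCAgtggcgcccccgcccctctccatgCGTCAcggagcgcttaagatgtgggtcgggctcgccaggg
Nr4a2: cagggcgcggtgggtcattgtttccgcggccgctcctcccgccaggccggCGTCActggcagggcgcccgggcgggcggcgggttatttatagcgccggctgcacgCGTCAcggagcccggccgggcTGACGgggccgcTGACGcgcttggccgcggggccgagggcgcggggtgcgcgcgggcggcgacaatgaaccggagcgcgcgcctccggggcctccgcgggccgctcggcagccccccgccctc
Nr4a3: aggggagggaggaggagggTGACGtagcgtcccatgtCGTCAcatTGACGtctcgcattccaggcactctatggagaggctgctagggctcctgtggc
TGACG, searched on both strands in windows from 250 bases before to 50 after the start, occurred in 20.8% of 32851 RefSeq promoters and at least 2 times in 5.01% of them. The printed stretches held it 2 times in Egr2, 2 in Egr4, 4 in Nr4a1, 4 in Nr4a2 and 3 in Nr4a3, and the Npas4 window, which is not printed, held it 2 times. The Egr2 stretch belongs to the start site at 67537869, 1 of 5 for the gene in the RefSeq table. The windows at 67537870 and 67537930, which overlap it, also held TGACG 2 times, and those at 67535499 and 67537566 held it 0 times. The CArG box lay 72 bases before the start at 67537869, a motif present in 1.63% of all windows. The Egr2 window at 67535499 and the windows of Egr4, Nr4a1, Nr4a2, Nr4a3 and Npas4 held 0 CArG boxes. The full palindrome TGACGTCA, found in 1.79% of windows, the Egr site GCGTGGGCG, in 0.612%, and the Nr4a site AAAGGTCA, in 1.51%, had 0 matches in any of these windows. A match is a run of letters and says nothing by itself about binding.

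On GRCm38 the genes lie on 8 different chromosomes. Egr1 (ENSMUSG00000038418) spans 34859823 to 34864984 of chromosome 18, Egr2 (ENSMUSG00000037868) 67535475 to 67542188 of chromosome 10 and Egr3 (ENSMUSG00000033730) 70077203 to 70082614 of chromosome 14. Egr4 (ENSMUSG00000071341) spans 85511121 to 85513589 of chromosome 6 on the minus strand. Nr4a1 (ENSMUSG00000023034) spans 101254269 to 101274795 of chromosome 15, Nr4a2 (ENSMUSG00000026826) 57106830 to 57124003 of chromosome 2 on the minus strand and Nr4a3 (ENSMUSG00000028341) 48045153 to 48086447 of chromosome 4. Npas4 (ENSMUSG00000045903) spans 4984355 to 4990316 of chromosome 19 on the minus strand. In GENCODE M21, 0 other annotated genes overlapped any of them.

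Libraries held between 41.3 and 61.7 M counts, with a median of 47.7 M. Per unit of gene length, Egr1 was the most abundant of the 8 genes in wild type striatum, at 139.7 FPKM ± 24.9 (fragments per kilobase per M, SD, n = 8). Egr3 followed at 106.6 ± 13.7 FPKM and Nr4a1 at 91.4 ± 13.99, then Egr4 at 42.5 ± 6.11, Npas4 at 16.7 ± 2.07, Egr2 at 11.4 ± 2.47 and Nr4a3 at 8.495 ± 3.31. Nr4a2 stood far below at 0.257 ± 0.0769 FPKM, with 28 to 63 counts in each wild type library, while Egr1 had 20747 to 36176. Medium spiny neuron markers matched the tissue label: Ppp1r1b (DARPP-32) was at 2517 to 2855 CPM and Pde10a at 2342 to 2967 CPM in wild type. The cortical gene Slc17a7 was at 1.92 to 7.11 CPM in the same libraries. In markers of neighbouring tissue 4 libraries stood apart, Q140 Ccdc82-/- female 3 and wild type female 4 in cortical genes and Ccdc82-/- male 1 and wild type male 1 in choroid plexus genes, and results that change without them are named.

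**Figure D1:**
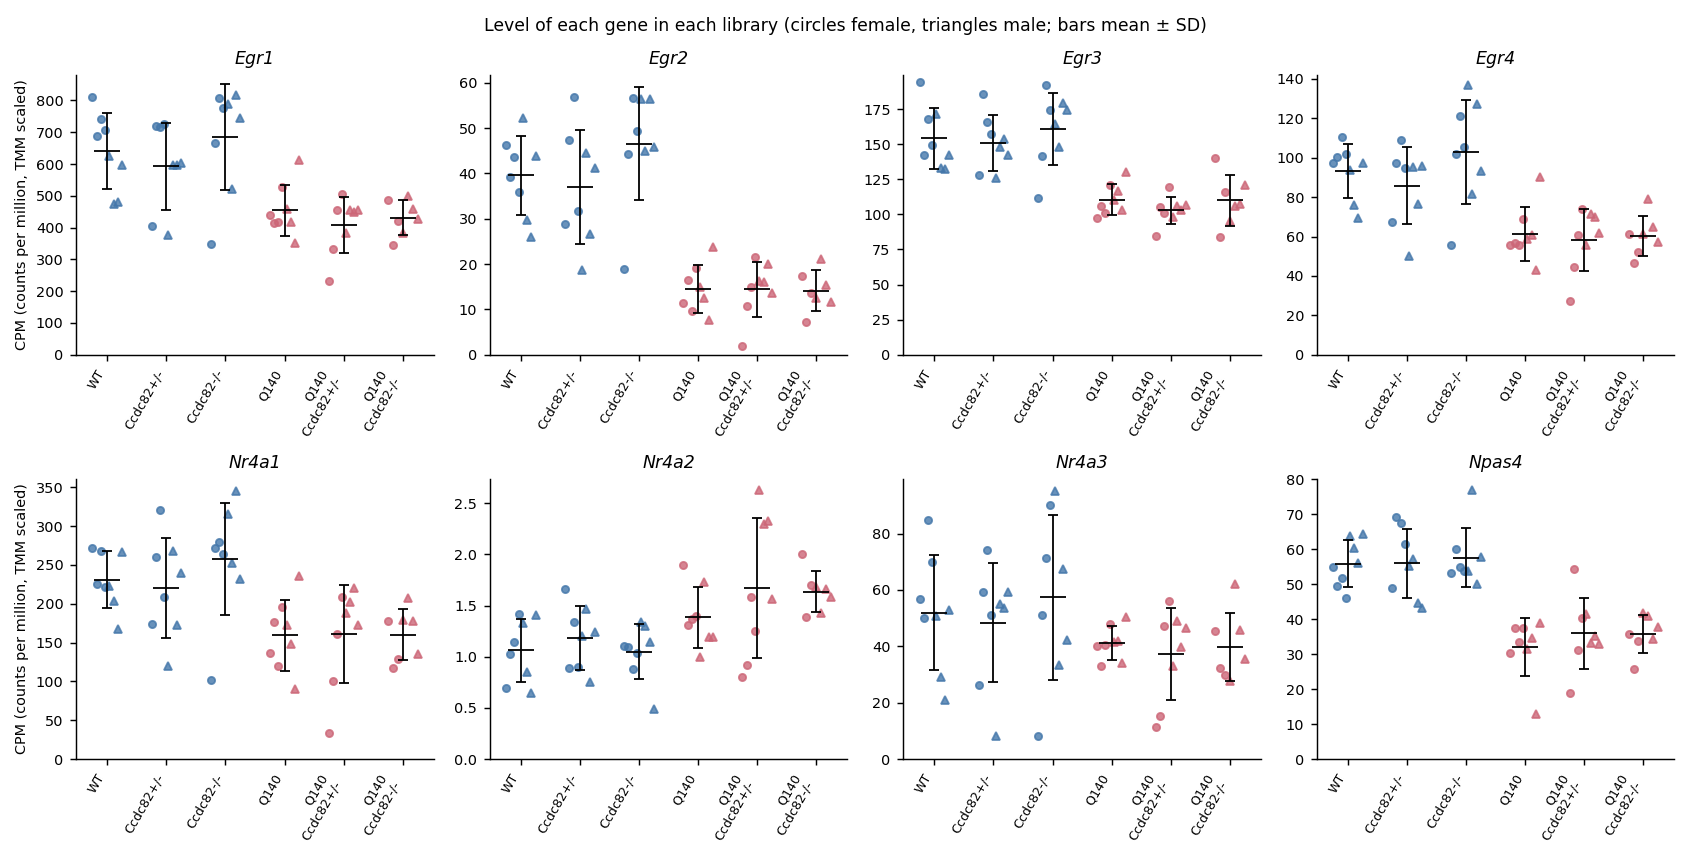
Each panel shows 1 gene in 47 libraries, in CPM on a linear axis from 0; columns are the 6 genotype groups, circles are females, triangles males, and bars the mean ± SD. In the panels of Egr2 and Npas4 the groups with Q140 (red) lie almost wholly under those without it (blue), the Nr4a2 panel runs the other way, and within a colour the groups lie at similar heights.

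The comparison of Q140 with wild type asks how the expanded Htt allele changes expression of these genes. All 4 Egr genes and Npas4 fell, and 0 of the 8 genes rose. Nr4a1, Nr4a2 and Nr4a3 did not pass the test, which was edgeR's quasi-likelihood test with Benjamini-Hochberg adjustment over all genes and a threshold of 0.05. Against 5 of 8 lower here, 16.5% of all tested genes were lower and 18.2% higher, 34.7% in all. The median log2 fold change was -0.52 over the 8 genes and 0.00 over all genes tested.

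Egr2 (Krox20), a factor best known from myelinating Schwann cells and hindbrain patterning and induced by activity in forebrain neurons, had the largest fall of the 8. In wild type its level was 25.98 CPM in the lowest library, 41.4 at the median and 52.1 in the highest, and in Q140 it was 7.55, 13.7 and 23.8 CPM. The groups did not overlap, and all 8 Q140 libraries lay under all 8 wild type libraries. The log2 fold change was -1.46 ± 0.27 (SE, edgeR adjusted p = 2.80e-05), which left 36.5% of the wild type level. An exact two-sided permutation test on log2 CPM gave p = 0.0001554, the smallest it can give with 8 against 8, and an adjusted p of 0.000746 over the 24 tests of 8 genes on 3 backgrounds.

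Npas4, which neurons induce in response to calcium entry more selectively than the other genes, was next. Its wild type libraries ran from 46.1 CPM over a median of 55.5 to 64.3, and its Q140 libraries from 12.9 over 33.9 to 38.9. These groups did not overlap either. The log2 fold change was -0.80 ± 0.16 (SE, edgeR adjusted p = 6.52e-05). The lowest value, 12.9 CPM in Q140 male 3, was far under the next one of 30.4.

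Egr3, which acts downstream of several neurotrophic and activity signals, had the least scatter of the Egr genes. It stood at 132 CPM in the lowest, 146 at the median and 194 in the highest wild type library, and at 97.3, 108 and 130.3 CPM in Q140, again without overlap. Its log2 fold change was -0.48 ± 0.10 (SE, edgeR adjusted p = 1.34e-04). Ranges that did not overlap, with Q140 lower, were thus seen for 3 of the 8 genes, against 5.07% of all genes tested, and with Q140 higher for 0 of the 8, against 4.7%.

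Egr1 (Zif268), the member most used as a marker of neuronal activity, had 475 CPM in the lowest, 656 at the median and 809.8 in the highest wild type library. Q140 libraries had 353, 429 and 614 CPM, so the ranges overlapped, with 6 of 8 Q140 libraries under all wild type ones. The log2 fold change was -0.49 ± 0.16 (SE, edgeR adjusted p = 0.0135). Egr4, a further zinc finger member, stood at 69.7, 97.1 and 110.5 CPM in wild type and 43.1, 57.8 and 90.1 CPM in Q140. It fell by 0.61 ± 0.17 on the log2 scale (SE, edgeR adjusted p = 0.00425), with 7 of 8 Q140 libraries under all wild type ones. For Egr1 the call rested on both sexes together: it was -0.72 in females alone (edgeR adjusted p = 0.0547) and -0.24 in males alone (edgeR adjusted p = 0.393). Egr4 did not pass in males alone, at -0.41 (edgeR adjusted p = 0.228), nor Npas4 in females alone, at -0.55 (edgeR adjusted p = 0.0720).

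Nr4a1 (Nur77), the Nr4a gene with the highest level in striatum, had 167, 224 and 272 CPM in wild type (lowest, median, highest) and 89.7, 160.2 and 236 CPM in Q140. Its log2 fold change of -0.54 ± 0.24 (SE) missed the threshold in edgeR (adjusted p = 0.0743). It passed with limma voom (-0.61, adjusted p = 0.0380), in an edgeR fit of the 2 groups alone (-0.53, adjusted p = 0.0294), without Q140 male 4 (-0.63, edgeR adjusted p = 0.0426), and by the exact permutation test (adjusted p = 0.00870). The exact p was adjusted over 24 tests rather than over all genes, and that test held no sex term. Unadjusted, the exact permutation p was 0.00544 and the edgeR p 0.0284. Nr4a3 (Nor1) had a wide spread in wild type, from 21.1 CPM over a median of 51.8 to 84.9, and lay between 32.9 and 50.3 CPM in Q140. Its log2 fold change was -0.33 ± 0.34 (SE, edgeR adjusted p = 0.492).

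Nr4a2 (Nurr1), known for its role in midbrain dopamine neurons and as a marker of the claustrum, was the only one of the 8 with a positive estimate. It had 0.648, 1.08 and 1.42 CPM in wild type and 0.994, 1.34 and 1.90 CPM in Q140 (lowest, median, highest). The log2 fold change was 0.39 ± 0.20 (SE, edgeR adjusted p = 0.131).

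The same allele was set against its own control among Ccdc82+/- and among Ccdc82-/- mice, with other mice in each group, so these are the same measures in libraries that the Q140 and wild type groups do not share, although 1 fit estimated the spread for all. On Ccdc82+/-, 5 of the 8 genes were lower and 1 higher (background 16.7% and 18.4%, together 35.0%). On Ccdc82-/-, 6 were lower and 1 higher (background 15.7% and 17.5%, together 33.2%). The 4 Egr genes and Npas4 fell on both backgrounds as they did without Ccdc82 targeting.

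**Figure D2:**
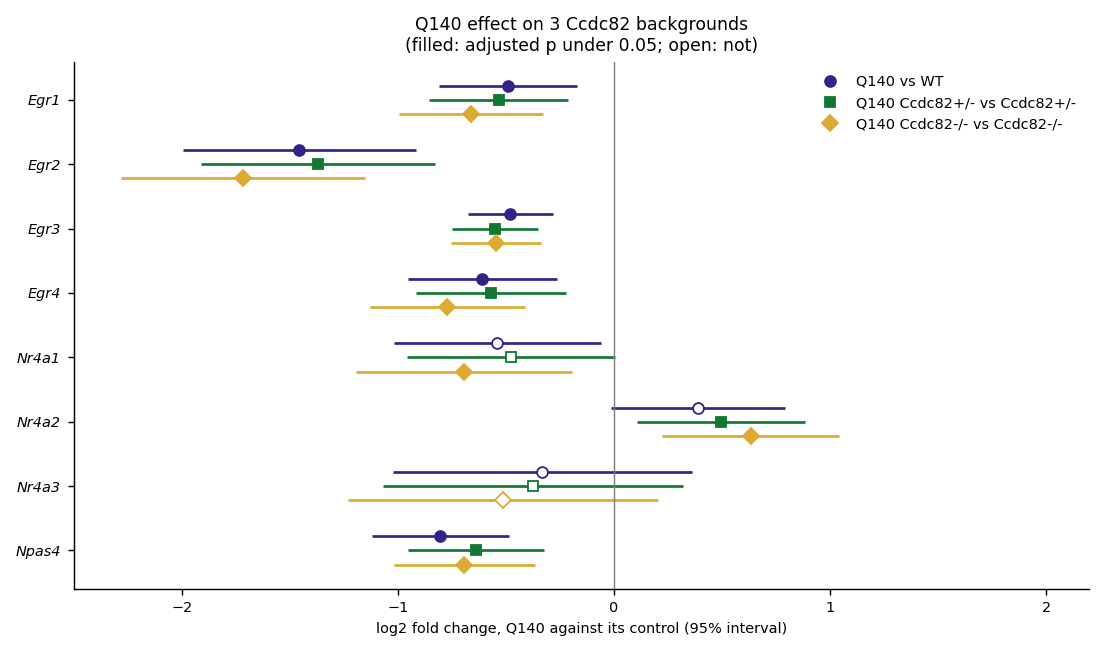
Log2 fold change of Q140 against its control (x axis) for each gene (rows) on 3 Ccdc82 backgrounds, with 95% intervals; filled symbols passed an edgeR adjusted p of 0.05. Egr2 lies between -1.72 and -1.37 on all 3 backgrounds, the other Egr genes and Npas4 between -0.80 and -0.48, and Nr4a2 between 0.39 and 0.63 on the other side of 0.

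Egr2 changed by -1.37 ± 0.27 on Ccdc82+/- and by -1.72 ± 0.28 on Ccdc82-/- (log2, SE, edgeR adjusted p under the threshold in both). Its 23 libraries with Q140 reached at most 23.8 CPM, and 22 of the 24 libraries without Q140 were above that. The 2 that were not, Ccdc82+/- male 1 at 18.6 CPM and Ccdc82-/- female 1 at 18.8, overlapped the range with Q140. For Npas4 the changes were -0.64 ± 0.16 and -0.69 ± 0.16, and 22 of 23 libraries with Q140 lay under all 24 without it. The exception was Q140 Ccdc82+/- female 2 at 54.3 CPM. Q140 Ccdc82+/- female 1 had the lowest Egr1, Egr2, Egr4, Nr4a1, Nr4a2 and Nr4a3 of the 23 libraries with Q140, with Egr2 at 1.97 CPM, and without it Egr2 changed by -1.20 on that background.

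Egr3 changed by -0.55 ± 0.10 on both backgrounds, Egr1 by -0.53 ± 0.16 and -0.66 ± 0.17, and Egr4 by -0.57 ± 0.17 and -0.77 ± 0.18 (log2, SE). All 23 libraries with Q140 were under the median of the 24 without it for Egr1, Egr2, Egr3, Egr4, Nr4a1 and Npas4. The share of all genes for which this held was not computed. Ranges of these 23 and 24 libraries overlapped in all 8 genes, while 2.59% of all genes were wholly lower and 1.25% wholly higher with Q140. Between the groups on Ccdc82+/-, Egr3 had ranges that did not overlap, 1 of 8 genes against 5.76% of all genes on the lower side and 0 of 8 against 4.52% on the higher. On Ccdc82-/-, Npas4 did not overlap on the lower side and Nr4a2 on the higher side, against 5.36% and 4.12% of all genes.

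The Nr4a genes were less uniform. Nr4a1 was at -0.47 ± 0.24 on Ccdc82+/- (edgeR adjusted p = 0.123) and fell by 0.69 ± 0.25 on Ccdc82-/- (edgeR adjusted p = 0.0271). That call was lost when any of 4 libraries was left out (Ccdc82-/- male 3 and Q140 Ccdc82-/- female 2, female 3 and male 4, adjusted p 0.0538 to 0.0596) and without the 4 libraries high in cortical or choroid plexus genes (-0.61, edgeR adjusted p = 0.0970). It was also lost with the replicate block in place of the sex term (-0.63, edgeR adjusted p = 0.0563). Nr4a3 was at -0.37 ± 0.34 and -0.51 ± 0.36 and passed on neither (edgeR adjusted p = 0.442 and 0.289). In the 24 libraries without Q140 it scattered more than the other 7 genes, with an SD of 44.2% of the mean and 11.7 times the level of the lowest library in the highest.

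Nr4a2 rose by 0.50 ± 0.19 on Ccdc82+/- (SE, edgeR adjusted p = 0.0417) and by 0.63 ± 0.20 on Ccdc82-/- (edgeR adjusted p = 0.0129). By the exact permutation test it did not pass on Ccdc82+/- (adjusted p = 0.142) and passed on Ccdc82-/- (adjusted p = 0.00140). On Ccdc82-/- its 7 libraries with Q140 ran from 1.39 over a median of 1.66 to 1.999 CPM and the 8 without from 0.489 over 1.095 to 1.34, without overlap. On Ccdc82+/- the groups overlapped widely, at 0.798 to 2.63 against 0.749 to 1.66 CPM, and leaving out any of 9 of the 16 libraries ended the call (0.37 to 0.50, edgeR adjusted p 0.0536 to 0.142). There the estimate was -0.07 in females alone. The 9 were Ccdc82+/- females 2 and 4 and males 1, 3 and 4, and Q140 Ccdc82+/- female 3 and males 1, 2 and 3.

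Averaged over the 3 backgrounds, which uses all 47 libraries, 6 genes were lower and 1 higher, beside 25.5% and 28.8% of all genes (together 54.3%). Egr2 changed by -1.51 ± 0.16, Npas4 by -0.71 ± 0.09, Egr4 by -0.65 ± 0.10, Nr4a1 by -0.57 ± 0.14, Egr1 by -0.56 ± 0.09, Egr3 by -0.53 ± 0.06 and Nr4a2 by 0.51 ± 0.12 (log2, SE). Nr4a3, at -0.41 ± 0.20, did not pass (edgeR adjusted p = 0.0858), and passed without Ccdc82-/- female 1 (-0.46, edgeR adjusted p = 0.0300) or Ccdc82+/- male 1 (-0.47, edgeR adjusted p = 0.0315), the 2 libraries with the lowest Nr4a3, at 8.22 and 8.11 CPM.

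Medium spiny neuron markers moved with these genes. In Q140 11 of the 12 markers were lower and 1, Tac1, higher than in wild type, beside 16.5% lower and 18.2% higher over all genes, with a median of -0.59, and Ppp1r1b changed by -0.60 ± 0.04 (log2, SE). Their summed level was 14380 to 16310 CPM in wild type and 8910 to 10910 CPM in Q140. In bulk RNA, fewer cells of a type and less RNA per cell cannot be told apart, and the part of the marker fall in the fall of the 8 genes was not tested. Nr4a2 did not pass in Q140 against wild type. In that comparison 2 of 13 cortical and claustrum markers were higher and 3 lower, shares near the 18.2% and 16.5% of all genes. On Ccdc82+/- 2 were higher and 0 lower (18.4% and 16.7% of all genes), and on Ccdc82-/- 4 higher and 1 lower (17.5% and 15.7%). Summed, they ran from 78.7 to 99.6 CPM in the wild type group and from 87.2 to 98.4 CPM with Q140, from 81.9 to 103 CPM in Ccdc82+/- mice against 82.7 to 105 CPM when Q140 was added, and from 82.2 to 90.7 CPM in Ccdc82-/- mice against 87.8 to 101 CPM, and 0 of the 13 were at 0 in all libraries. The cortical genes Slc17a7 and Neurod6 fell by 0.74 ± 0.26 and 0.88 ± 0.35 in Q140 against wild type (log2, SE), with wild type female 4, high in cortical genes, among the libraries. Gnb4, the claustrum marker of the list, was at 0.17 ± 0.08 in Q140 and 0.10 ± 0.08 on Ccdc82+/- (edgeR adjusted p = 0.0913 and 0.353) and rose by 0.24 ± 0.08 on Ccdc82-/- (log2, SE). The part of these cells in the Nr4a2 rise was not tested.

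To show which genes moved more or less than the rest, each was set against Egr1 in the same library. Egr2 was at 6.13% of the Egr1 level in wild type and at 3.02% in Q140 (geometric means of CPM). The log2 ratio differed by -1.02 between these groups without overlap, by -0.99 on Ccdc82+/- and by -1.09 on Ccdc82-/- (exact permutation tests, adjusted p = 0.00163, 0.00218 and 0.00163 over 21 ratios). Nr4a2 rose relative to Egr1 by 0.90, 0.96 and 1.32 (exact permutation tests, adjusted p = 0.00522, 0.0228 and 0.00408). These ratios include the fall of Egr1 itself, at -0.49, -0.53 and -0.63 in log2 CPM, so an unchanged gene would also rise. Nr4a2 by itself differed by 0.41, 0.43 and 0.69 (exact permutation tests, adjusted p = 0.0646, 0.142 and 0.00140). For Egr3, Egr4, Nr4a1, Nr4a3 and Npas4, 0 of 15 ratios passed, with differences from -0.37 for Npas4 in Q140 to 0.33 for Nr4a3 on Ccdc82-/-.

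Egr2 as a percentage of Egr1 ran from 5.07% to 8.35% in wild type, from 4.36% to 7.95% in Ccdc82+/- and from 5.38% to 8.65% in Ccdc82-/-. With Q140 it ran from 2.14% to 3.97% without Ccdc82 targeting, from 0.855% to 4.44% on Ccdc82+/- and from 2.12% to 4.25% on Ccdc82-/-, so of the 3 pairs of groups the 1 on Ccdc82+/- overlapped. Ccdc82-/- female 1 and Ccdc82+/- male 1 had the lowest Egr1 of the 24 libraries without Q140, at 349.9 and 376 CPM. Their Egr2, at 5.38% and 4.94% of Egr1, was above every library with Q140. The overlap came from Ccdc82+/- female 4, at 4.36% with 726 CPM of Egr1, under the 4.44% of Q140 Ccdc82+/- male 3. Ccdc82+/- male 3, with 598 CPM of Egr1, was just above that at 4.45%.

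**Figure D3:**
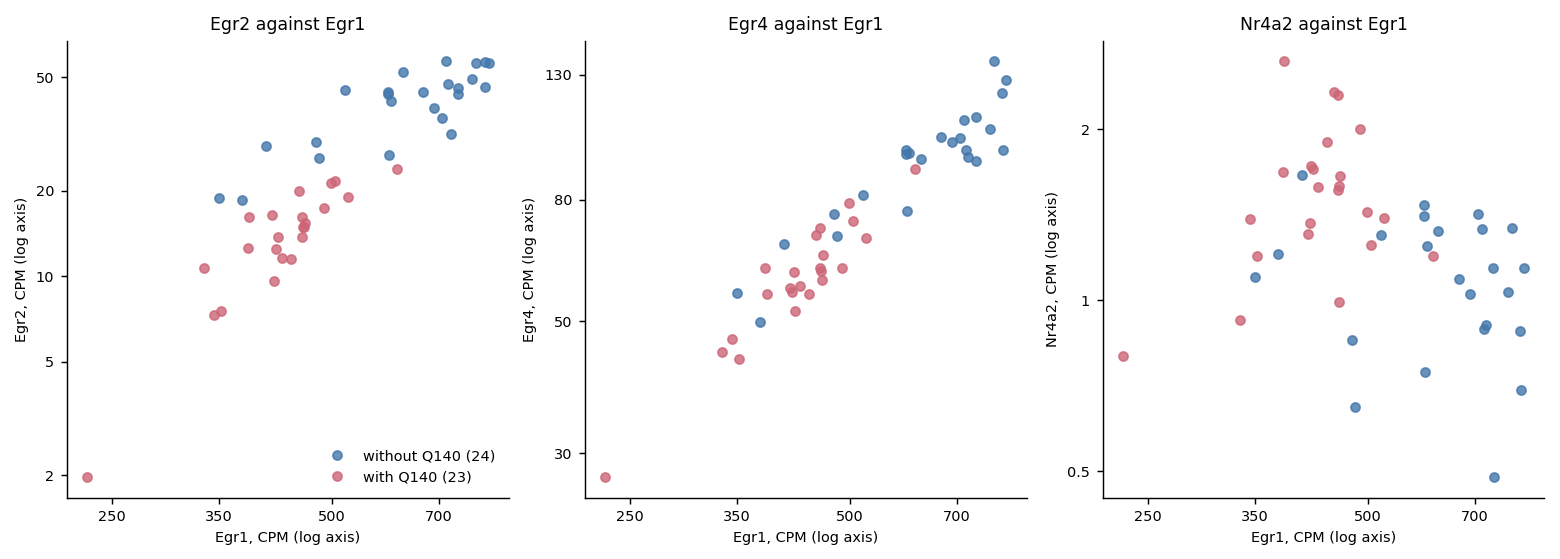
Egr2, Egr4 and Nr4a2 (y axes) against Egr1 (x axes) in CPM, both axes log, with 1 point per library. Egr4 lies along 1 band in libraries with and without Q140, Egr2 with Q140 lies under the band of the others, and Nr4a2 shows no band and lies higher with Q140.

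Loss of Ccdc82 was compared with and without Q140. In Ccdc82+/- against wild type the log2 fold changes of the 8 genes ran from -0.12 (Egr4) to 0.16 (Nr4a2), and in Ccdc82-/- against wild type from -0.02 (Nr4a2) to 0.23 (Egr2). On the Q140 background they ran from -0.15 (Egr1) to 0.26 (Nr4a2) in Ccdc82+/- and from -0.07 (Egr1) to 0.23 (Nr4a2) in Ccdc82-/-. In these 4 comparisons 0 of 8 genes passed edgeR's adjusted threshold, beside 0.00521% of all genes in each, 0 were under an unadjusted p of 0.05, and DESeq2 called 0. The 95% interval of the Egr2 difference in Ccdc82-/- against wild type was -0.28 to 0.74, and that of Egr3, the most precisely measured, -0.14 to 0.26, so a change as large as that of Egr3 with Q140 (-0.48) lay outside the interval.

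The interactions asked whether the Q140 effect depended on Ccdc82. They ran from -0.07 (Egr3) to 0.16 (Npas4) for Ccdc82+/- and from -0.26 (Egr2) to 0.24 (Nr4a2) for Ccdc82-/-, and 0 of 8 genes passed, 0 also at an unadjusted p under 0.05 and 0 by DESeq2, with 0.0% of all genes called. The 95% interval for Egr2 with Ccdc82-/- was -1.03 to 0.51 and for Egr1 -0.63 to 0.29, so moderate differences were not detectable. Averaged over both Htt genotypes, Ccdc82+/- changed the genes by -0.13 (Egr1) to 0.21 (Nr4a2) and Ccdc82-/- by 0.01 (Egr1) to 0.10 (Nr4a2), with 0 of 8 called beside 0.00521% of all genes.

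Differences between females and males ran from -0.13 (Nr4a1) to 0.05 (Nr4a3), with 0 of 8 called, 0 under an unadjusted p of 0.05, 0 by DESeq2, and 8.67% of all genes called, 4.03% lower and 4.64% higher in females. The Q140 effect in females minus that in males ran from -0.54 for Nr4a3 to 0.01 for Npas4, with a median of -0.29. The smallest unadjusted p was 0.0938 for Egr4 and 0 of 8 genes passed, with 0.0% of all genes called and DESeq2 calling 0 of the 8.

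Ordered by mean level, the 3 groups with Q140 came after the 3 without it for 7 of the genes and before them for Nr4a2. Over the 15 pairs of groups and 8 genes, 52 of 72 pairs that differed in Htt genotype and 0 of 48 pairs that did not passed an exact permutation test adjusted over 120 tests. The pairs share groups, so they are not independent, and this test was not run over all genes. By edgeR, between 33.2% and 35.0% of all genes were called for Q140 on the 3 backgrounds. In each Ccdc82 comparison with wild type or Q140, 0.00521% were. Neighbours in the order that passed the exact permutation test were Ccdc82+/- over Q140 for Egr2, Egr3 and Egr4 and wild type over Q140 Ccdc82+/- for Npas4. Egr2 was at 36.96 against 14.4 CPM and Egr3 at 151 against 110.6 (exact permutation adjusted p = 0.00266 for each). Egr4 was at 85.8 against 61.2 CPM and Npas4 at 55.9 against 35.9 (exact permutation adjusted p = 0.0415 and 0.00311). In each of these steps the ranges of the groups overlapped. For Egr1 the step from Ccdc82+/- (593 CPM) to Q140 (455 CPM) gave an exact permutation adjusted p of 0.0858, and for Nr4a1, Nr4a2 and Nr4a3 no neighbours passed.

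The genes also varied together among mice of the same genotype and sex. For each pair, log2 CPM deviations from the genotype and sex means were correlated over 47 libraries. Of the 21 pairs without Nr4a2, 20 passed a permutation test of Pearson's r and 18 of Spearman's rho, adjusted over 28 pairs. The highest was Egr2 with Nr4a1 (r = 0.96, rho = 0.94, permutation adjusted p = 1.87e-05 and 2.15e-05, r = 0.93 without the 2 farthest libraries, 0.97 in females and 0.93 in males). Egr1 with Egr4 (r = 0.93, rho = 0.88) and Egr4 with Nr4a1 (r = 0.93, rho = 0.89) followed, with the same permutation adjusted p. The smallest unadjusted p that 100000 permutations can give is 1e-05. The share of pairs among all genes that would pass these tests was not computed. Whether 20 of 21 pairs is more than for other genes in these libraries was therefore not tested.

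Npas4 and Nr4a2 varied less closely with the others. Npas4 with Nr4a3 gave r = 0.10 and rho = 0.03 (permutation adjusted p = 0.544 and 0.859), and Npas4 with Egr1 gave r = 0.34 (permutation adjusted p = 0.0302) and rho = 0.19 (permutation adjusted p = 0.248). In the 24 libraries without Q140, r of Npas4 with the 6 genes other than Nr4a2 ran from -0.05 to 0.21, and in the 23 with Q140 from 0.26 to 0.72. The difference between these was not tested. The 7 pairs with Nr4a2 ran from r = -0.09 to 0.27 and 0 passed in either measure. Their r ran from -0.29 to 0.18 in the 24 libraries without Q140 and from 0.20 to 0.44 in the 23 with it. That difference was not tested either. With 23 to 161 counts per library, counting noise weighs more on Nr4a2 than on the other genes.

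**Figure D4:**
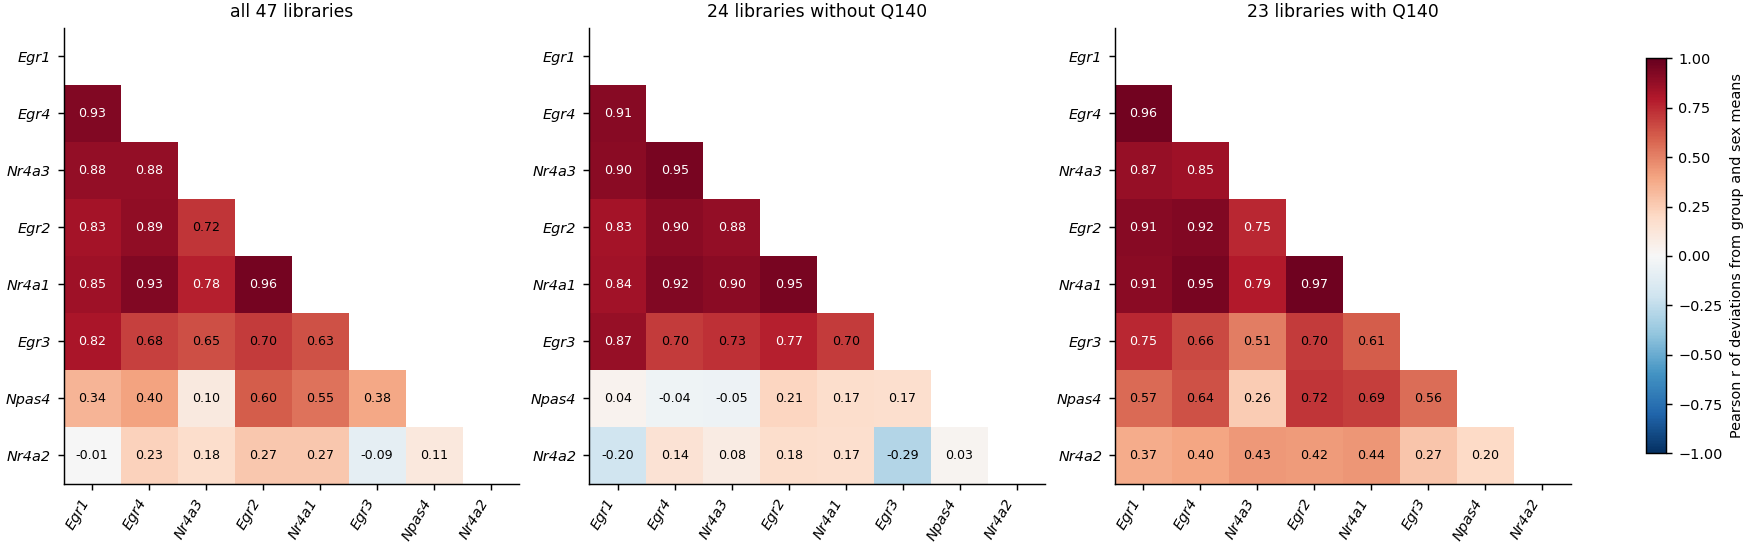
Pearson's r of log2 CPM deviations from genotype and sex means for each pair of genes, over all 47 libraries and over those without and with Q140. Over all 47, Egr1, Egr4, Nr4a3, Egr2 and Nr4a1 form a block of values from 0.72 to 0.96, and Egr3 joins it at 0.63 to 0.82. Npas4 lies lower at 0.10 to 0.60 and Nr4a2 at -0.09 to 0.27.

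Over the 13886 genes compared, those most like each of the 8 in the same deviations included several other activity genes, and are given as a description over 47 libraries. Srf, which encodes the CArG box factor, was most like Egr1 (r = 0.97), before Midn (0.95) and Rgs2 (0.95). For both Egr2 (r = 0.97) and Nr4a1 (r = 0.94) it was 1700016P03Rik, a noncoding gene at 75172560 to 75177633 of chromosome 11 (GRCm38) that holds the microRNA genes Mir212 and Mir132 on its strand, before the ERK phosphatase gene Dusp6 and the synaptic gene Arc. Fosl2, an AP-1 gene, was most like Egr4 (r = 0.94) and Nr4a3 (r = 0.95), the serotonin receptor gene Htr1b was most like Egr3 (r = 0.92) and Fos most like Npas4 (r = 0.74). For Nr4a2 the highest was Cyr61 (r = 0.62). Among the 18 genes that the top 3 of each member came to, 9 fell in Q140 against wild type and 9 did not pass, beside 16.5% of all genes lower. On Ccdc82+/- 6 of the 18 fell and on Ccdc82-/- 8, beside 16.7% and 15.7%. Srf fell by 0.18 ± 0.07, 1700016P03Rik by 0.75 ± 0.24 and Htr1b by 0.35 ± 0.10 in Q140 against wild type (log2, SE). On Ccdc82+/- 1700016P03Rik was at -0.49 ± 0.24 (edgeR adjusted p = 0.119). Rnd3, which followed Nr4a3 with r = 0.94, was at 0.04 ± 0.21 (edgeR adjusted p = 0.897).

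Other genes of the pathway were described by counts, to be read beside 16.5% of all tested genes lower and 18.2% higher in Q140 than in wild type. Of 6 tested AP-1 genes 3 were lower in Q140 than in wild type and 0 higher, with a median of -0.36. Junb fell by 0.63 ± 0.16, Jun by 0.30 ± 0.09 and Jund by 0.18 ± 0.03 (log2, SE), while Fos, the best known activity gene, was at -0.43 ± 0.29 and Fosb at -0.19 ± 0.11 (edgeR adjusted p = 0.257 and 0.201). Of 29 other immediate early genes 14 were lower and 0 higher (all genes 16.5% and 18.2%), with a median of -0.31. Homer1, a scaffold of the synapse, fell by 0.64 ± 0.12, Csrnp1 by 0.61 ± 0.09, Ier5 by 0.52 ± 0.04 and the kinase gene Plk2 by 0.22 ± 0.04. On Ccdc82+/- 10 of the 29 were lower and 1 higher, and on Ccdc82-/- 14 and 0 (all genes 16.7% and 18.4%, then 15.7% and 17.5%).

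Among 7 partners and corepressors 4 were lower and 0 higher in Q140 than in wild type, beside 16.5% and 18.2% of all genes. Rxrg, a retinoid X receptor that can pair with Nr4a1 and Nr4a2, fell by 0.61 ± 0.06, Rxrb by 0.11 ± 0.03, Rxra by 0.08 ± 0.03 and the Egr corepressor gene Nab2 by 0.18 ± 0.05 (log2, SE). Nab1, and the Npas4 partners Arnt and Arnt2, were at -0.01, -0.01 and -0.04 and did not pass. Of 30 upstream regulators 12 were lower and 3 higher (all genes 16.5% and 18.2%), with a median of -0.06. The CREB kinase genes Rps6ka4 and Rps6ka5 fell by 0.69 ± 0.04 and 0.49 ± 0.04, Camk4 by 0.41 ± 0.04 and Rasgrp2, which activates Rap, by 0.60 ± 0.05 (log2, SE). The 3 that rose, named after their values were seen, were Mef2c (0.21 ± 0.03), Creb1 (0.13 ± 0.03) and the coactivator gene Ep300 (0.11 ± 0.04).

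Of 7 tested genes known as targets of Egr, Nr4a or Npas4 proteins 3 were lower and 0 higher (all genes 16.5% and 18.2%), with a median of -0.17. The lists share genes, so these counts are not separate from those above. Arc, Bdnf and Nptx2 were also counted among the other immediate early genes, and Nab2 among the partners and corepressors. Arc, whose promoter region is known to respond to Egr proteins, fell by 0.60 ± 0.21, Nab2 by 0.18 ± 0.05 and Cdk5r1, which encodes an activator of the kinase Cdk5, by 0.10 ± 0.04 (log2, SE). Bdnf, a known Npas4 target, was at -0.32 ± 0.23 in Q140 against wild type, -0.17 ± 0.22 on Ccdc82+/- and 0.47 ± 0.23 on Ccdc82-/-, and passed in none of them (edgeR adjusted p = 0.308, 0.620 and 0.112).

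**Figure D5:**
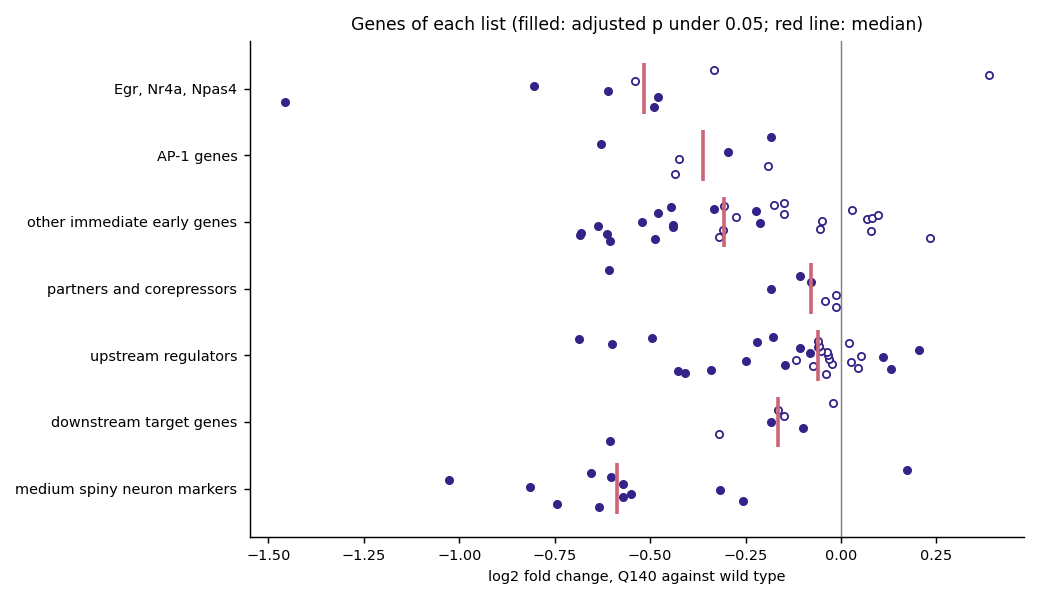
Log2 fold change of Q140 against wild type (x axis) for the genes of each list (rows), 1 point per gene, filled where the edgeR adjusted p was under 0.05, with a red line at the median. The 8 genes have a median of -0.52, medium spiny neuron markers -0.59, other immediate early genes -0.31 and upstream regulators -0.06.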

How the data were processed

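Striatal total RNA was sequenced as stranded TruSeq libraries, 1 per mouse. The deposited count table holds raw read counts per gene, and the deposited FPKM table gives them per kilobase of a fixed gene length and per M of each library (largest relative deviation 3.3e-13). Per the submitters' processing notes, STAR 2.7.5c, SAMtools 1.10 and HTSeq 0.12.3 were used with GRCm38 and mm10; the annotation release and the strand setting are not given in the sources used here.

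Groups, sexes and replicate numbers came from the labels. The tests used edgeR 4.0.16 under R 4.3.3: genes were filtered with filterByExpr, scaled by TMM and fitted with 1 coefficient per genotype and a sex term over 47 libraries, and contrasts were tested with the robust quasi-likelihood test at a Benjamini-Hochberg adjusted p under 0.05. A fit with 1 coefficient per genotype and sex (19714 genes) gave the sex difference of the Q140 effect. Single genes were also compared by exact two-sided permutation tests on log2 CPM. The scripts were checked on simulated counts.

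The members, gene lists and tests were chosen with earlier results of these data known. Named genes were the 8 members, up to 4 genes per list ranked by their p for Q140 over wild type, Ccdc82, Htt, and the 3 genes most like each member; not all of them are described. Outside this rule, and after their values were seen, Tac1, Ppp1r1b, Pde10a, Neurod6, Gnb4, Arnt, Arnt2, Nab1, Mef2c, Creb1 and Ep300 were also named. Ratios to Egr1 were added after the data were seen. Htt itself stood at 217 CPM in wild type and 199 in Q140. Alternatives were RLE factors, DESeq2 1.42.0, limma 3.58.1 with voom or with log2(FPKM + 0.1) and log2(FPKM + 1), no count filter, other covariates, subsets of libraries and leaving out each library. Intervals rest on the modelled scatter among mice; reads copied by PCR were not separated.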

Additional observations from a re-analysis of the deposited data

Results flagged for a closer look

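Dixon's criterion was applied to the highest and lowest library in each of the 48 combinations of gene and group. It sets the gap to the nearest library against the full range of the group. Chance alone meets it in about 1 in 20 groups, and 4 values met it. Ccdc82-/- female 1 was low in Egr2, at 18.8 CPM beside a next lowest value of 44.3, and in Nr4a1, at 101 CPM beside 232. Ccdc82-/- male 2 was high in Npas4, at 76.9 CPM beside 59.98. Q140 male 3 was low in Npas4, at 12.9 CPM beside 30.4. The Q140 calls of Egr2 and Npas4 on the backgrounds these mice belong to were the same without each of them.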

How the results depend on the processing

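Averaged over the 3 backgrounds, 7 genes were called in each of the alternatives run other than leaving out single libraries, which gave 7 or, without Ccdc82-/- female 1 or Ccdc82+/- male 1, 8. In Q140 against wild type 5 genes were called, and 3 with females alone, with males alone and with the number in the description label (meaning not stated) as a factor; on Ccdc82+/- 6 were called, and 3 with males alone; on Ccdc82-/- 7 were called, and 4 with females alone. With fewer libraries or more coefficients the fits had less to estimate the spread from. All other counts of calls over the 14 comparisons stayed within 1.5 times their value, 0 staying 0 for the Ccdc82, interaction and sex comparisons.

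The replicate numbers did not pair the mice: over 115 pairs with the same sex and number the median correlation of deviations was -0.006, and 9 of 47 libraries correlated best with their own number. With the replicate block in place of the sex term, 5 genes were called in Q140 against wild type, 6 on Ccdc82+/- and 6 on Ccdc82-/-, where Nr4a1 was at -0.63 (edgeR adjusted p = 0.0563).

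Changes of sign were looked for in every member in the Q140 comparisons, their average included. In each other comparison only the genes with the lowest and highest estimate were checked. Among the estimates checked, those that changed sign were all outside the calls except 1, Nr4a2 on Ccdc82+/- in females alone (-0.065). The cause was not tested. The others were Nr4a3 in Q140 against wild type in males alone (0.13); Nr4a2 in Ccdc82-/- against wild type in males alone (0.014) and without the 4 marker-high libraries (0.077, chosen after seeing the data); in females alone Nr4a2 in Q140 Ccdc82+/- against Q140 (-0.40), the Npas4 interaction with Ccdc82+/- (-0.23), and the average effects of Ccdc82+/- on Nr4a2 (-0.12) and of Ccdc82-/- on Egr1 (-0.14, and -0.0895 with the label number as a factor). The sex difference of Nr4a3 was -0.0085 with FPKM at a pseudocount of 0.1, with and without a filter. The difference of the Q140 effect between sexes was 0.0236 for Nr4a3 with the label number and -0.0073 for Npas4 without the marker-high libraries. The r of Egr1 with Nr4a2 was 0.016 with FPKM. Among the fold changes checked, leaving out 1 library moved 5 near-zero estimates across 0: Nr4a2 in Ccdc82-/- against wild type (-0.10 to 0.096), Egr1 in Q140 Ccdc82-/- against Q140 (-0.12 to 0.0103), the average Ccdc82-/- effect on Egr1 (-0.0148 to 0.0655), the sex difference of Nr4a3 (-0.0144 to 0.11) and the sex difference of the Q140 effect on Npas4 (-0.075 to 0.0851).

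Depth limits Nr4a2, with 23 to 161 counts per library, more than the other genes.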
